A study of Mus musculus with 27 samples.

Results

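The genes described here encode the nuclear subunits of respiratory complexes III, IV and V. They were taken from the count table by symbol: every symbol starting with Uqcr, the symbol Cyc1, every symbol starting with Cox4 to Cox8 and a letter, and every symbol starting with Atp5 and a letter, without symbols ending in -ps or -ps and a number. The rule found 46 of 57683 features, namely 9 for complex III, 19 for complex IV and 18 for complex V, and it left out 1 pseudogene, Atp5l-ps1. RefSeq carries 3 of the 46 under other names that are not subunits of these complexes: Cox4nb is Emc8, Atp5s is Dmac2l and Atp5sl is Dmac2. Another, Atp5l2, is annotated as a pseudogene.

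All 27 hearts came from C57BL/6J mice, an inbred strain, and the labels name no genetic change in any of them. The embryonic group held 7 whole hearts at embryonic day E13.5, whose sex the labels give as unknown. The labels do not say whether replicates came from separate litters or cohorts, so p-values measure the spread between these libraries. The adult groups were ventricular apexes: 6 unoperated mice at 6 weeks of age, 6 unoperated mice at 16 weeks, 4 sham-operated mice at 12 weeks, and 4 mice at 12 weeks that had been under transverse aortic constriction (TAC) for 4 weeks. All adults are labelled male except TAC replicate 4, which is labelled female, so the TAC group has a mixed sex label and the sham group does not. The age field of the embryos counts upward from replicate to replicate, and the day in their titles is used here. TAC is a surgical narrowing of the aorta that makes the left ventricle pump against a higher pressure. Whole heart and apex differ in their chambers, so age and chamber cannot be told apart in the E13.5 comparisons.

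Complex III passes electrons from ubiquinol to cytochrome c, complex IV (cytochrome c oxidase) passes them on to oxygen, and both pump protons across the inner mitochondrial membrane. Complex V (ATP synthase) lets the protons back through a rotating ring and makes ATP. A few core subunits are encoded in mitochondrial DNA and the rest in the nucleus, and several complex IV subunits exist as a ubiquitous form and a second form found in heart and skeletal muscle, of which Cox6a2, Cox7a1 and Cox8b are the muscle forms in the mouse.

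Libraries held between 7543375 and 12646039 counts at E13.5, 2092270 to 2682955 at 6 weeks, 2164604 to 2642307 at 16 weeks, 7958592 to 11561952 in sham hearts and 10411417 to 11846819 in TAC hearts. The unoperated adults were also the only ones labelled with another base quality encoding, so their depth and encoding cannot be told apart from their group. In 8 adult libraries, 2 in each adult group, Y-linked counts went against the sex in the label, and results are given without these libraries where that ends a call. Levels below are CPM, the counts of a gene relative to the library's total on its usual scale, adjusted with TMM factors, and levels compared between genes are CPM per kilobase of the exonic bases that a gene shares with no other feature. These lengths merge all annotated exons of a gene, so orders between genes depend on them. Fold changes and adjusted p-values are from edgeR's quasi-likelihood test over all features that passed its expression filter, with Benjamini-Hochberg adjustment, and a gene was called at an adjusted p under 0.05. In bulk tissue, fewer cells of a type and less RNA per cell cannot be told apart.

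The muscle forms of complex IV were the members that differed most between the embryonic and the adult heart. The promoters of a pair with opposite changes, Cox8b and Cox8a, and of a second muscle form, Cox7a1, are printed so that the pair can be compared base by base. They are RefSeq sequences of build GRCm38.p6, from 250 bases before to 50 after the start site, written 5′ to 3′ on the strand of the gene. Capitals mark matches to the motifs searched. Cox8b lies on the minus strand at chr7:140900397-140900696, Cox8a on the minus strand at chr19:7217567-7217866 and Cox7a1 on the plus strand at chr7:30183921-30184220.
Cox8b: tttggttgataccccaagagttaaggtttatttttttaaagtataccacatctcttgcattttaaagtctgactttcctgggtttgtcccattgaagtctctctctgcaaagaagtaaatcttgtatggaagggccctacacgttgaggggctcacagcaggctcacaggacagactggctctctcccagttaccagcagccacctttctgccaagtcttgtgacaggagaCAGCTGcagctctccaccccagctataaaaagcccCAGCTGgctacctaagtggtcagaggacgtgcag
Cox8a: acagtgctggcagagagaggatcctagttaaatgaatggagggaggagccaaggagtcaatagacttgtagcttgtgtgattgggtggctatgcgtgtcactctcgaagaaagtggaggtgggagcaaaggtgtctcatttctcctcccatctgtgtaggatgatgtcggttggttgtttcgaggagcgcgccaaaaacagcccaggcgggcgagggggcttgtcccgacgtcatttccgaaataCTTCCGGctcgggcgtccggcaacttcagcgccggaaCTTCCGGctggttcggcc
Cox7a1: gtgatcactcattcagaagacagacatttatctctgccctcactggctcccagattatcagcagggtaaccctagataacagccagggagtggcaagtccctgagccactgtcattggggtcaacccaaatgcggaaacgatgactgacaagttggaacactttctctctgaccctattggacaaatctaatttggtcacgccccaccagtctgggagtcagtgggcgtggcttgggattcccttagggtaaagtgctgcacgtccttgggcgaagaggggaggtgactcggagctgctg
The Cox8b window held the E box CAGCTG, a muscle factor motif, at 19 bases before and 17 after the start. The Cox8a window held the core CCGGAAG of the ETS factor GABP on its other strand, where it reads CTTCCGG, at 5 bases before and 33 after the start. Cox7a1 had no match.

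Motifs were searched on both strands in the 34 members with a promoter entry and in all 32851 RefSeq promoter windows of the same length. A member was counted if any of its windows held the motif, and Atp5c1, Atp5d, Atp5j and Atp5sl have more than 1 window. Shares of members and shares of windows are therefore not quite the same measure. The GABP core was found in 10 of the 34 members (29.4%) and in 8.86% of all windows. The NRF-1 motif GCGCATGCG was found in 6 members (17.6%) against 1.75% of all windows, and its core TGCGCA, which can overlap it, in 6 (17.6%) against 7.76%. The core AAGGTCA of the oestrogen-related receptors was found in 4 members against 4.72% of windows, and the longer TCAAGGTCA, which contains it, in 1 member, Atp5g3, against 0.423%. The E box, which reads the same on both strands, was found in 2 members, Cox8b and Atp5b, against 16.3% of windows, and the MEF2 consensus in 0 against 3.19%. Of the ubiquitous partners, Cox6a1 held the GABP core and both NRF-1 motifs. Cyc1, Uqcrb, Uqcrc2, Uqcrq, Cox4i1, Cox4i2, Cox4nb, Cox6a2, Cox6c, Cox8c, Atp5a1 and Atp5l2 had no entry.

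Not every member could be measured. Atp5l (ATP synthase subunit g), Cox8c (a testis form) and Atp5s had 0 counts in all 27 libraries. Atp5l has 0 exonic bases outside other annotated features in the deposited annotation and Atp5s has 2. Cox4nb has 1.719% of its bases to itself and 15 counts in all, Cox6b1 14.89% and Uqcr10 27.57%. Cox7b2, another testis form, had 5 counts, all in E13.5 hearts, and Atp5l2 had 12. Atp5f1, subunit b of the peripheral stalk, is an abundant part of the enzyme but had only 124 counts over all libraries, with 59.76% of its bases to itself. For 14 members the genome holds pseudogenes with at least 95% identity over at least 100 coding bases. These members include Uqcrb, Cox7c, Cox6c, Cox7b, Cox7a2l, Atp5h, Atp5g1 and Atp5g2. Reads of these 14 genes may have been split and their levels are uncertain.

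Summed over all members, the 3 complexes took 1.04% ± 0.08 (SD, n = 7) of all counts at E13.5, 3.01% ± 0.10 (n = 6) at 6 weeks, 2.95% ± 0.05 (n = 6) at 16 weeks, 2.76% ± 0.08 (n = 4) in sham hearts and 2.60% ± 0.14 (n = 4) in TAC hearts. E13.5 hearts lay between 0.934% and 1.13%, below every adult heart, the lowest of which stood at 2.51%. Complex V held the largest part in each group, from 0.672% at E13.5 to 1.67% at 6 weeks.

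Per kilobase, the order of the members at E13.5 was Cox8a with 548 CPM per kb, Atp5a1 with 495, Atp5b with 478, Cox4i1 with 456 and Cox6a2 with 436. Atp5a1 and Atp5b are the α and β subunits that form the catalytic head of ATP synthase. In sham hearts the order was Cox6a2 with 7716 CPM per kb, Cox8b with 3265, Cox4i1 with 2703, Cox7a1 with 2624 and Atp5a1 with 2044. The same 5 genes held the 5 highest ranks at 6 weeks, at 16 weeks and under TAC, so all 3 muscle forms were among the most abundant members in every adult group and only Cox6a2 was so at E13.5. The ranges of neighbours overlapped between Cox4i1 and Cox7a1 in sham hearts and between each pair of neighbours among the first 5 at E13.5, while Cox6a2 lay above all other members in every adult heart.

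Cox6a2 (mm9 chr7:135349128-135349830, minus strand, 3 exons) is the muscle form of subunit VIa. It stood at 138, 197 and 227 CPM (lowest, median and highest) at E13.5, at 2805, 3230 and 3623 at 6 weeks and at 3412, 3901 and 4302 at 16 weeks. Sham hearts held 3928, 2580, 3675 and 3089 CPM, and TAC hearts 3478, 3948, 3060 and 3063. Every adult heart lay above every embryonic heart, and the adult groups overlapped each other. The fitted log2 difference at E13.5 was -4.25 (SE 0.09, adjusted p = 8.75e-27) against unoperated adults and -4.23 (SE 0.13, adjusted p = 2.8e-13) against sham hearts.

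Cox6a1, its ubiquitous partner, went the other way. It stood at 192, 202 and 225 CPM at E13.5, at 62.3, 86.5 and 91.8 at 6 weeks and at 81.6, 88.7 and 97.7 at 16 weeks. Sham hearts held 115, 110, 105 and 112 CPM and TAC hearts 165, 164, 153 and 142. Embryonic hearts were the highest, TAC hearts came next and neither group overlapped another. Its log2 difference at E13.5 was 1.27 (SE 0.06, adjusted p = 4.79e-18) against unoperated adults and 0.81 (SE 0.06, adjusted p = 3.43e-10) against sham.

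Cox8b (mm9 chr7:148084844-148086308, minus strand, 2 exons), the muscle form of subunit VIII, had the largest decrease of all members at E13.5. It stood at 12.8, 20.5 and 21.9 CPM at E13.5, at 935, 1028 and 1159 at 6 weeks and at 979, 1021 and 1096 at 16 weeks. Sham hearts held 1050, 924, 1147 and 1097 CPM. Its log2 difference at E13.5 was -5.78 (SE 0.10, adjusted p = 2.47e-28) against unoperated adults and -5.89 (SE 0.13, adjusted p = 1.34e-15) against sham. Cox8a, the ubiquitous form, stood at 232, 277 and 309 CPM at E13.5, at 103, 123 and 132 at 6 weeks and at 115, 138 and 164 at 16 weeks, and sham hearts held 178, 129, 176 and 174. It was higher at E13.5 by 1.06 (log2, SE 0.07, adjusted p = 3.72e-15) against unoperated adults and by 0.62 (SE 0.10, adjusted p = 9.58e-06) against sham. The 2 genes, whose promoters are printed above, thus moved in opposite directions and their embryonic and adult values did not overlap.

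Cox7a1 (mm9 chr7:30969190-30971047, plus strand, 4 exons), the muscle form of subunit VIIa, stood at 21.8, 29.7 and 31.8 CPM at E13.5, at 766, 934 and 961 at 6 weeks and at 722, 886 and 973 at 16 weeks. Sham hearts held 974, 814, 981 and 1051 CPM. Its log2 difference at E13.5 was -4.99 (SE 0.09, adjusted p = 4.41e-28) against unoperated adults and -5.19 (SE 0.10, adjusted p = 3.05e-18) against sham. Its ubiquitous partner Cox7a2 was also lower at E13.5, unlike Cox6a1 and Cox8a. Cox7a2 stood at 79.6, 93.6 and 126 CPM at E13.5 against 276, 323 and 338 at 6 weeks, a log2 difference of -1.53 (SE 0.07, adjusted p = 1.34e-18) against unoperated adults and -1.99 (SE 0.09, adjusted p = 8.92e-13) against sham.

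**Figure D1:**
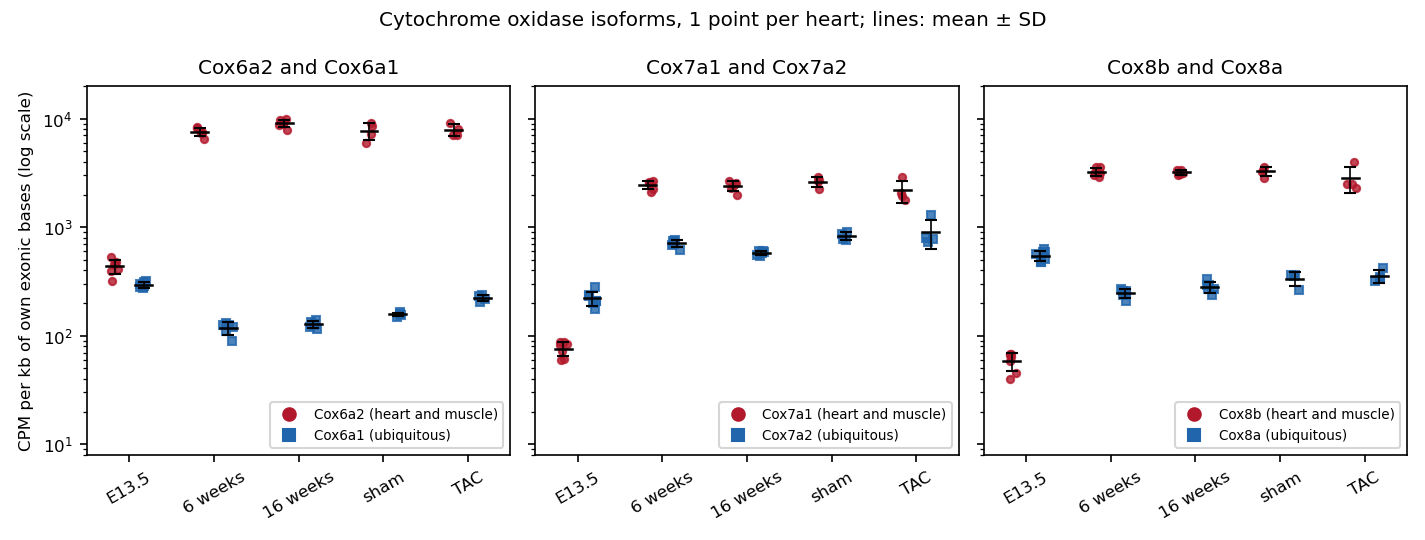
Level of each muscle form (red circles) and its ubiquitous partner (blue squares) in CPM per kb of own exonic bases, on a log axis, with 1 point per heart in the 5 groups and lines for the mean and SD. Cox7a1 and Cox8b lie below their partners at E13.5 and above them in every adult group, while Cox6a2 lies above Cox6a1 in all groups, at 436 against 294 CPM per kb at E13.5.

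As a share of its pair per length, Cox6a2 rose from 59.5% ± 4.9 (SD, n = 7) at E13.5 to 98.5% ± 0.2 (n = 6) at 6 weeks, and was 98.6% ± 0.1 (n = 6) at 16 weeks, 98.0% ± 0.4 (n = 4) in sham and 97.2% ± 0.2 (n = 4) in TAC hearts. Cox7a1 made up 25.7% ± 2.0, 77.6% ± 0.7, 80.4% ± 2.1, 76.0% ± 1.8 and 71.1% ± 1.3 of its pair in the same order of groups. Cox8b made up 9.59% ± 1.42, 92.8% ± 1.0, 91.9% ± 0.6, 90.7% ± 0.7 and 88.5% ± 1.2. Per length, the muscle form was therefore the majority transcript of 1 of the 3 pairs in the embryo, and of all 3 in adults. For Cox6a2 at E13.5 this rests on the lengths used, 430 bases against 702 for Cox6a1. Mean CPM at E13.5, not divided by length, was 188 for Cox6a2 and 206 for Cox6a1. The sum of both forms was also lower in the embryo, at 730 CPM per kb for Cox6a1 and Cox6a2 together against 7711 at 6 weeks, 297 against 3167 for Cox7a1 and Cox7a2, and 606 against 3481 for Cox8a and Cox8b.

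The log2 ratio of muscle to ubiquitous form was tested by an exact two-sided permutation of hearts, with adjustment over 32 tests (8 pairs in 4 comparisons). The differences of E13.5 from unoperated adults were -5.53 for Cox6a2 to Cox6a1 (SE 0.12), -3.46 for Cox7a1 to Cox7a2 (SE 0.08) and -6.86 for Cox8b to Cox8a (SE 0.11), each with an exact p of 3.97e-05, the smallest this design can give, and an adjusted p of 0.000181. Against sham hearts the same differences were -5.04, -3.20 and -6.54, each with an exact p of 0.00606, again the smallest possible, and an adjusted p of 0.0121. No embryonic heart overlapped an adult heart in any of these ratios. Both comparisons use the same 7 embryonic libraries.

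**Figure D2:**
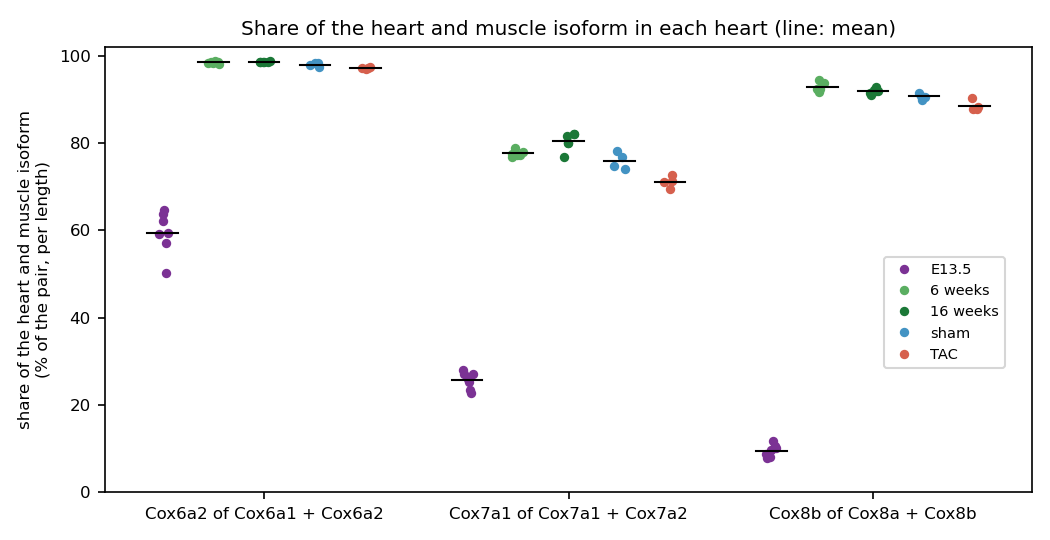
Share of the muscle form in each pair, in percent of the pair per length, with 1 point per heart and a line for the mean of each group. E13.5 hearts sit at 50.1% to 64.8% for Cox6a2, 22.8% to 28.1% for Cox7a1 and 7.78% to 11.8% for Cox8b, below all adult hearts.

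Other subunits with more than 1 gene were less clear-cut. Cox4i2, an oxygen-regulated form of subunit IV, made up 1.46% ± 0.23 (SD, n = 7) of the Cox4 pair per length at E13.5 and 0.637% ± 0.117 (n = 6) at 6 weeks, although both genes were lower in CPM at E13.5. Its log2 ratio to Cox4i1 was higher at E13.5 by 1.23 (SE 0.13, exact permutation test, adjusted p = 0.000181) against unoperated adults. Cox6b2, a form of subunit VIb known from testis, stood at 8.24, 10.1 and 16.9 CPM at E13.5 and at no more than 3.30 in any adult heart. Its log2 difference was 3.03 (SE 0.25, adjusted p = 2.64e-12) against unoperated adults and 2.77 (SE 0.25, adjusted p = 4.63e-09) against sham. With 0 to 7 counts in unoperated adults, Cox6b2 passed the filter of that comparison only through the embryonic hearts, so it had to differ there. Without it 33 of 36 members were lower and 2 higher. Sham hearts held 8 to 20 counts of Cox6b2, and it passed that filter, too, only through the embryonic hearts, so that difference depends on the filter as well. Its partner Cox6b1 was counted over only 70 bases, so their ratio is not a sound measure of the pair.

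Atp5g1, Atp5g2 and Atp5g3 encode the same subunit c of the ATP synthase ring. Atp5g3 had the highest measured level in all groups, at 156 CPM per kb at E13.5 and 557 at 6 weeks. Atp5g1 stood at 19.4, 27.03 and 32.0 CPM at E13.5 and at 255, 298 and 360 at 6 weeks, and sham hearts held 206, 201, 213 and 205. It had the largest decrease of the complex V members against unoperated adults, -3.45 (log2, SE 0.09, adjusted p = 1.73e-24), and its log2 ratio to Atp5g3 differed by -1.62 ( SE 0.11, exact permutation test, adjusted p = 0.000181). Atp5g2 had few counts, with means between 1.16 and 2.73 CPM. It has 2 pseudogene copies with 100% identity over 438 coding bases, while Atp5g1 has 1 copy and Atp5g3 has 0. The part of these copies in the low level and in the order of the genes was not tested. The higher Atp5g2 to Atp5g3 ratio at E13.5 against unoperated adults lost its call when 5 counts in place of 0.5 were added to each value.

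Across all members, the comparison of E13.5 with unoperated adults tested 37 genes. Of these 33 were called lower and 3 higher, where 39.7% and 44.1% of all 12766 tested features were called lower and higher, 83.8% in either direction. The 3 higher ones were Cox6b2, Cox6a1 and Cox8a, and Uqcrb was the 1 gene not called. The median log2 difference of the tested members was -2.08, against 0.07 for all tested features. For 36 of the 37 the E13.5 and adult values did not overlap, which was so for 54.5% of all features. Against sham hearts 39 members were tested, and 36 were called lower and 3 higher, where 35.6% and 40.7% of 18677 features were, 76.3% in either direction. The 3 higher were the same genes, the median was -2.21 against 0.12 for all features, and 35 of 39 did not overlap against 63.9% of features. Uqcr10 is among these 39 and passed the filter only through the sham hearts, and without it 35 of 38 were lower, 3 were higher and 34 did not overlap. Cox6b2, 1 of those 3, passed this filter only through the embryonic hearts. Called members were 7 of 8, 16 of 16 and 13 of 13 tested for complexes III, IV and V against unoperated adults.

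**Figure D3:**
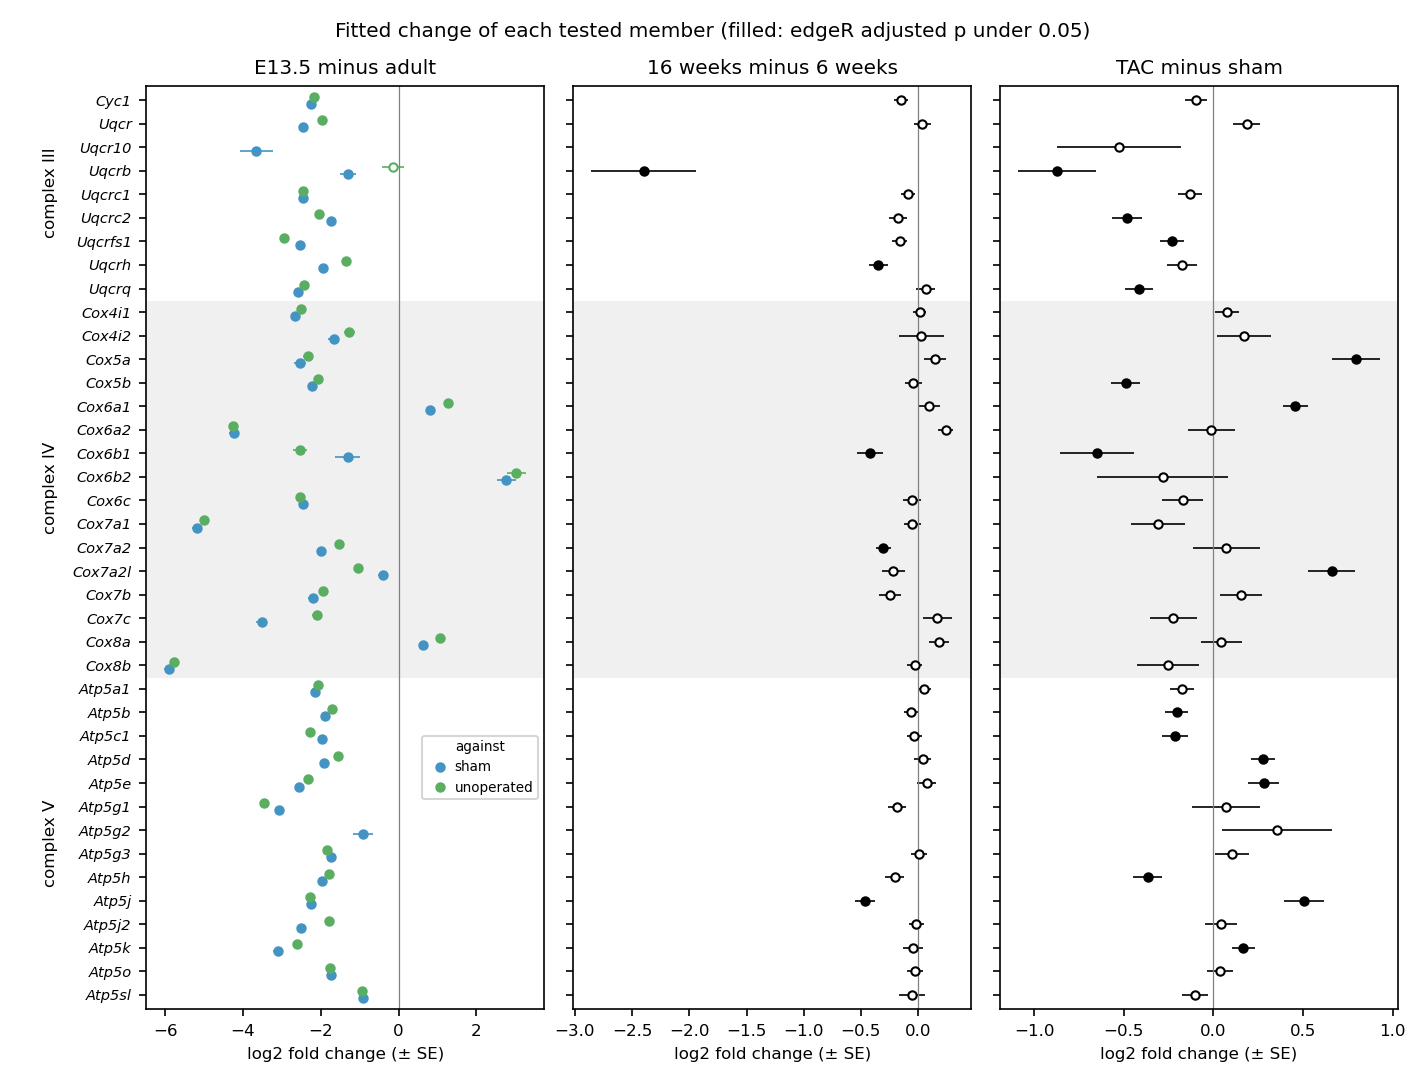
Fitted log2 fold change of each tested member with its SE, by complex, for E13.5 against sham (blue) and unoperated adults (green), 16 against 6 weeks, and TAC against sham. Filled points are called at an adjusted p under 0.05, and the horizontal axes differ in range. Nearly all members lie left of 0 at E13.5, while the other contrasts scatter around 0.

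Within complex III, the catalytic subunits Cyc1 (cytochrome c1) and Uqcrfs1 (the Rieske iron-sulphur protein) had log2 differences of -2.18 and -2.93 between E13.5 and unoperated adults (SE 0.07 and 0.08). Uqcrfs1 stood at 47.4, 64.4 and 81.1 CPM at E13.5 against 459, 505 and 536 at 6 weeks. The core proteins Uqcrc1 and Uqcrc2 had log2 differences of -2.47 and -2.04 (SE 0.06 and 0.08). The small subunits Uqcr (Uqcr11 in RefSeq), Uqcrq and Uqcrh had log2 differences of -1.96, -2.43 and -1.35. Uqcr10 passed the filter only against sham hearts, through 12 to 26 counts in those, and cannot be compared with the others.

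In complex V, all 13 tested members were lower. Atp5a1 and Atp5b of the catalytic head had log2 differences of -2.08 and -1.72 (SE 0.06 and 0.06), and Atp5c1, Atp5d and Atp5e of the central stalk -2.28, -1.56 and -2.32. Atp5h, Atp5j and Atp5o of the peripheral stalk had log2 differences of -1.78, -2.29 and -1.77, and the membrane subunits Atp5j2 and Atp5k -1.79 and -2.60. Atp5sl, which is Dmac2 and no subunit of ATP synthase, was the complex V symbol with the smallest difference, -0.95.  Of the other complex IV subunits, Cox5a, Cox5b, Cox6c, Cox7b and Cox7c had log2 differences of -2.32, -2.08, -2.53, -1.93 and -2.11. Cox7a2l had a log2 difference of -1.03 against unoperated adults and -0.41 against sham hearts (SE 0.13, adjusted p = 0.00799), a call that upper-quartile scaling ended (-0.24, adjusted p = 0.0989).

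Other genes of the same machinery were taken from lists. Of 28 listed complex IV assembly factors 13 were found among the features and 12 were tested. All 12 were called lower at E13.5 in both comparisons, with a median log2 difference of -0.85 against unoperated adults. That was a smaller shift than the members' -2.08 in the same fit, though the contrast between lists was not tested. The haem-farnesylating enzyme Cox10 had a log2 difference of -1.79 and the copper chaperone Cox17 -1.80. All 8 tested genes of complex II and electron shuttles were lower against unoperated adults, with a median of -2.29. Of the 9 tested genes of complex V assembly and regulation 8 were lower, among them Chchd3 of the cristae junctions at a log2 difference of -2.004 and Immt at -1.56, and the ATP synthase inhibitor Atpif1 was higher by 0.29 (SE 0.07, adjusted p = 0.000709). Against sham hearts 7 of these 9 were lower and Atpif1 was not called (0.03, adjusted p = 0.765). Of 8 listed complex III assembly factors 4 were found among the features and 2 were tested, and both were lower in each comparison. Of 6 mitochondrially encoded subunits, 2 passed the filter, mt-Co1 and mt-Cytb, and both were lower, at log2 differences of -2.40 and -2.14 against unoperated adults. These transcripts were measured after selection for poly(A) tails and their summed level ran from 1617 to 13844 CPM within the 16-week group alone.

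Of 17 tested regulators of respiratory genes, 11 were lower and 4 higher at E13.5 against unoperated adults. Ppara, a nuclear receptor of fatty acid use, had a log2 difference of -4.24, the oestrogen-related receptors Esrrb and Esrra -2.41 and -2.01, and Tfb2m, which starts mitochondrial transcription, -2.01. Nrf1, whose product binds the NRF-1 motif, was higher by 0.81, Gabpb1, a partner in the GABP complex, by 0.88, Pprc1 by 1.37 and Yy1 by 0.25.

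Marker genes of cell types differed as well. All 12 cardiomyocyte markers were called lower at E13.5, with a median log2 difference of -2.14 against unoperated adults. Their summed level was 20218 to 27543 CPM at E13.5 against 119849 to 135836 at 6 weeks. Fewer cardiomyocytes and less of these transcripts per cell cannot be told apart here. All 8 tested erythroid markers were higher, and the list summed to 12733 to 49198 CPM at E13.5 against 137 to 305 at 6 weeks. Hbb-y, Hba-x and Hbb-bh1 had 0 counts in all unoperated adults, so any of them that was tested had to be higher. In the fit of unoperated adults alone only 3 genes of the list passed the filter, so the count of 8 depends on the filter. Of 10 fibroblast markers 6 were higher and 4 lower, and they summed to 2855 to 5166 CPM at E13.5 against 1485 to 2573 at 6 weeks. All 9 macrophage markers were lower, with a median of -1.62 and sums of 154 to 203 CPM against 357 to 526.4. Of 7 listed brown fat markers only 2 were tested, Cidea and Fabp4, and both were lower. That list summed to 14.4 to 26.6 CPM at E13.5 against 417 to 717 at 6 weeks, but its Ucp1 had 0 counts in every adult group. Against sham hearts 3 of the list were tested, with 2 lower and 1 higher. The part of these shifts in the members' difference was not tested. Leaving globins and mitochondrially encoded features out of the library sizes left 33 members lower and 3 higher.

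Between 6 and 16 weeks most tested members were not called. Of 36 tested, 5 were called lower and 0 higher, where 1.19% and 1.32% of all 10394 features were called lower and higher (2.51% in either direction), and the median log2 difference was -0.05 against -0.01 for all features. Beside the count of 0, DESeq2 and limma-voom each called 1 member higher, Cox6a2. In edgeR Cox6a2 was higher by 0.24 (SE 0.07, adjusted p = 0.0510), and it was called without 6-week replicate 6 or without 16-week replicate 2. The values at 6 and 16 weeks did not overlap for 2 members, Uqcrb and Cox7a2, against 2.05% of all features.

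Uqcrb, a small ubiquinone-binding subunit of complex III, showed the largest difference. The 6-week hearts held 17.05, 21.4, 15.6, 15.2, 17.02 and 18.2 CPM and the 16-week hearts 0.930, 3.86, 0.994, 0.472, 11.5 and 1.69, so 16-week replicate 5 stood apart from the other 5. The log2 difference was -2.40 (SE 0.46, adjusted p = 0.0171), and -3.44 without that heart. The call was lost without the 4 unoperated adults that go against their sex label (-1.98, adjusted p = 0.176). Sham hearts at 12 weeks held 16.0, 9.07, 21.1 and 18.0 CPM. In E13.5 hearts Uqcrb stood at 4.55, 6.91 and 10.2 CPM, so E13.5 was lower than 6 weeks (-1.36, adjusted p = 9.35e-08 against those alone) while the mean of both ages gave -0.14 (adjusted p = 0.651). Uqcrb has 3 near-identical pseudogene copies in the genome, and a part of these in the difference was not tested.

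Cox7a2 fell from 276, 323 and 338 CPM to 243, 262 and 269 (lowest, median, highest), a log2 difference of -0.30 (SE 0.07, adjusted p = 0.0177), which was lost without 16-week replicate 4 and without the libraries that go against their sex label (adjusted p = 0.0567). Cox7a1 was 934 and 886 CPM at the median, and the Cox7a1 to Cox7a2 ratio was higher at 16 weeks by 0.25 (log2, SE 0.08, exact permutation p = 0.0173, adjusted p = 0.0326). Leaving out any 1 of 9 hearts (6-week replicates 1, 2, 5 and 6, 16-week replicates 1, 2, 3, 4 and 6) ended that call, and over all 12 such fits the difference ran from 0.22 to 0.32. Atp5j, the coupling factor F6 of the peripheral stalk, fell from a median of 313 to 222 CPM (-0.46, SE 0.09, adjusted p = 0.00557), and kept its call without any 1 library. Uqcrh, the hinge protein of complex III, fell from a median of 362 to 282 CPM (-0.35, SE 0.08, adjusted p = 0.0244). The Uqcrh call was lost without 6-week replicate 1 or 4, without 16-week replicate 3 or 6, and without the libraries against their sex label. Cox6b1, at an adjusted p of 0.0495, lost its call without any 1 of 9 libraries, that is all but 6-week replicates 1, 2 and 6.

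**Figure D4:**
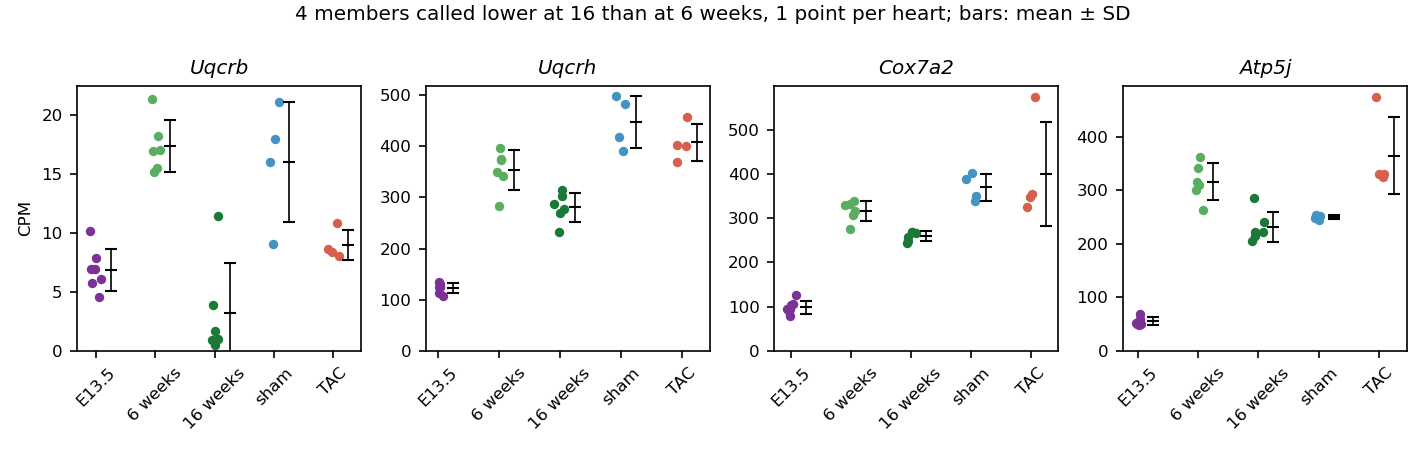
CPM of Uqcrb, Uqcrh, Cox7a2 and Atp5j in each heart of the 5 groups, with the mean and SD beside the points. Uqcrb is below 4 CPM in 5 of 6 hearts at 16 weeks and above 15 CPM in all 6 hearts at 6 weeks, and the highest TAC heart for Cox7a2 and Atp5j is TAC replicate 2.

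None of the 12 tested complex IV assembly factors, 17 regulators or 8 genes of complex II and electron shuttles was called between 6 and 16 weeks. Of the 9 complex V assembly and regulation genes, Atpaf1 rose (1.13, SE 0.31, adjusted p = 0.0475) and Chchd3 fell (-0.32, SE 0.08, adjusted p = 0.0363). Of 10 fibroblast markers 3 fell and 0 rose. Of 3 tested erythroid markers 1 rose, Hba-a2, and the sums of that list did not overlap, at 137 to 305 CPM at 6 weeks and 363 to 603 at 16 weeks. The part of these shifts in the members' values was not tested. Cardiomyocyte markers summed to 119849 to 135836 CPM at 6 weeks and 120876 to 141324 at 16 weeks.

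Pressure overload moved the members in both directions. Of 39 tested in TAC against sham hearts, 7 were called higher and 9 lower, where 19.6% and 18.4% of 14555 features were, 38% in either direction, so the share of members called was near that of all features. The median log2 difference was -0.10 against 0.00 for all features, and 13 of 39 did not overlap against 35.7% of all features. By complex, 0 of 9 tested members of complex III rose and 4 fell, 3 of 16 of complex IV rose and 2 fell, and 4 of 14 of complex V rose and 3 fell. The sham libraries also serve in the E13.5 comparison above.

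The member with the largest rise was Cox5a, a structural subunit of complex IV, at 196, 149, 157 and 153 CPM in sham hearts and 278, 371, 283 and 241 in TAC hearts, without overlap. Its log2 difference was 0.80 (SE 0.13, adjusted p = 0.00118). Cox7a2l stood at 62.5, 80.6, 54.1 and 54.2 CPM in sham and 115, 94.8, 110 and 89.0 in TAC hearts, again without overlap (0.66, SE 0.13, adjusted p = 0.00261). Atp5j stood at 254, 249, 252 and 245 CPM in sham and 325, 474, 331 and 331 in TAC hearts (0.51, SE 0.11, adjusted p = 0.00323). Cox6a1, with the values given above, was higher by 0.46 (SE 0.07, adjusted p = 0.000101). These 4 genes kept their call without any 1 library, while Atp5j lost it without the libraries against their sex label (0.63, adjusted p = 0.0633).

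The members that fell included 4 of the 9 tested in complex III. Uqcrc2, a core protein, stood at 619, 567, 677 and 684 CPM in sham and 426, 454, 454 and 543 in TAC hearts, without overlap (-0.48, SE 0.08, adjusted p = 0.000325). Uqcrq stood at 212, 243, 203 and 206 CPM in sham and 183, 150, 174 and 159 in TAC hearts (-0.42, SE 0.08, adjusted p = 0.00067). Uqcrfs1 had a log2 difference of -0.23 (SE 0.07, adjusted p = 0.0133) and Uqcrb -0.87 (SE 0.22, adjusted p = 0.00775). In Uqcrb the groups overlapped, since sham replicate 2 held 9.07 CPM and TAC replicate 4 held 10.9. In complex IV, Cox5b stood at 205, 164, 212 and 204 CPM in sham and 139, 156, 138 and 142 in TAC hearts (-0.49, SE 0.08, adjusted p = 0.000235). Cox5a and Cox5b, adjacent matrix-side subunits of the same enzyme, thus differed in direction. Cox6b1 had a log2 difference of -0.65 over its 70 own bases (adjusted p = 0.0334), and lost its call when any 1 of 7 of the 8 libraries, all but sham replicate 2, was left out.

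In ATP synthase the differences were smaller. Atp5d and Atp5e of the central stalk were higher by 0.28 each (SE 0.07 and 0.08, adjusted p = 0.0042 and 0.0161), while Atp5c1 of the same stalk had a log2 difference of -0.21 (SE 0.07, adjusted p = 0.0272). The catalytic Atp5b stood at 6239, 6088, 6168 and 6238 CPM in sham and 5457, 5807, 5264 and 5560 in TAC hearts, a difference of -0.21 (SE 0.06, adjusted p = 0.016). Atp5a1 had a log2 difference of -0.18, with no overlap, at an adjusted p of 0.0501, and it passed the threshold with RLE or upper-quartile scaling, DESeq2 and limma-voom (0.0419, 0.0213, 0.0188 and 0.0287). Atp5h of the peripheral stalk had a log2 difference of -0.37 (SE 0.08, adjusted p = 0.00261), opposite to Atp5j. Atp5k was higher by 0.17 at an adjusted p of 0.0493. Without 1 library, Atp5k lost its call in 7 of 8 cases (all but TAC replicate 4), Atp5c1 in 5 (sham replicates 1 and 4, TAC replicates 1, 3 and 4), Atp5b in 2 (sham replicate 1, TAC replicate 1) and Atp5e in 2 (sham replicates 3 and 4). Without the libraries against their sex label, the calls of Atp5b (-0.19, adjusted p = 0.081), Atp5c1 (-0.21, adjusted p = 0.0536) and Atp5k (0.14, adjusted p = 0.19) were lost as well, and Cox7c was called lower (-0.32, adjusted p = 0.04).

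TAC replicate 2 stood apart for several members. Cox8b was at 809, 1278, 740 and 813 CPM in the 4 TAC hearts, against 1050, 924, 1147 and 1097 in sham hearts, and was not called (-0.25, SE 0.17, adjusted p = 0.289). Cox7a1 was at 710, 1063, 653 and 752 CPM in TAC hearts and was not called either (-0.31, SE 0.15, adjusted p = 0.138). Without TAC replicate 2, Cox8b had a log2 difference of -0.46 (adjusted p = 0.00052), Cox7a1 -0.47 (adjusted p = 0.000702), Cox6c -0.30 (adjusted p = 0.00893) and Atp5a1 -0.21 (adjusted p = 0.025). That heart also held the highest Cox7a2 of its group, 574 CPM against 324 to 354 in the other TAC hearts.

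**Figure D5:**
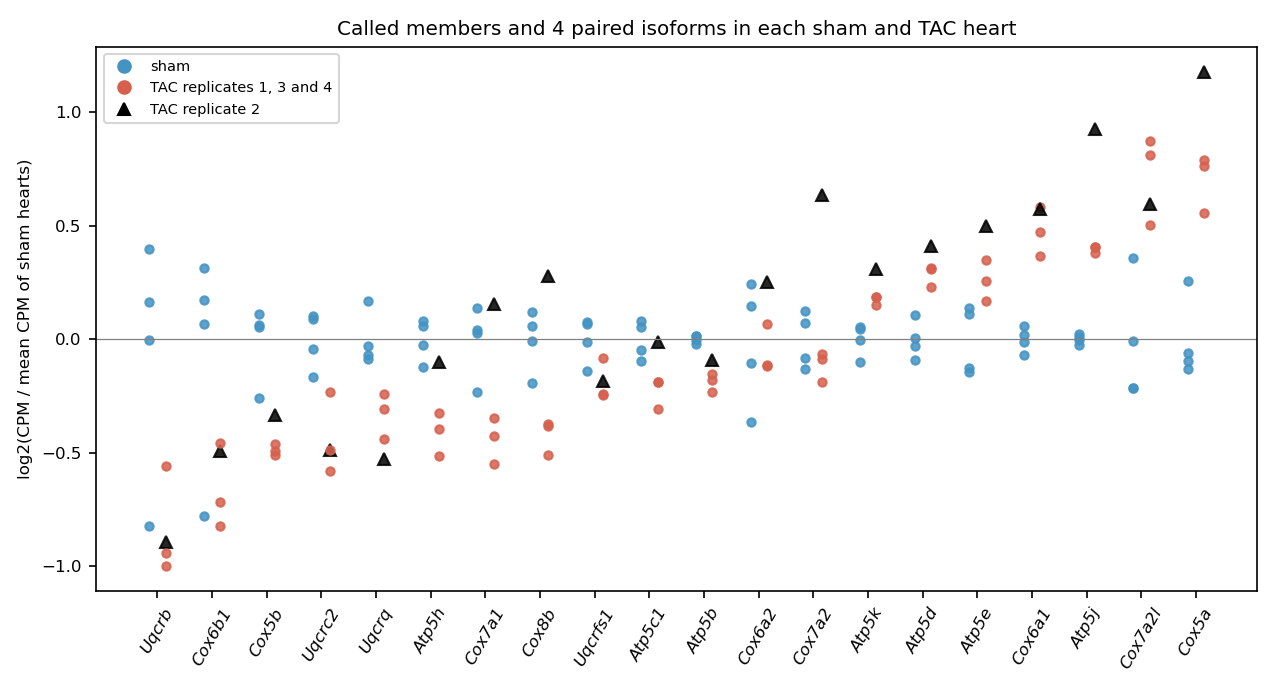
Log2 ratio of each heart's CPM to the mean of the sham hearts, for the 16 called members and for Cox6a2, Cox7a1, Cox7a2 and Cox8b, with sham hearts in blue, TAC replicates 1, 3 and 4 in red and TAC replicate 2 as black triangles. TAC replicate 2 is the highest TAC heart for Cox5a, Atp5j, Cox7a2, Cox8b and Cox7a1, and lies within the other TAC hearts for Cox7a2l and Uqcrc2.

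A ratio within a library does not depend on scaling. The Cox7a1 to Cox7a2 ratio differed between TAC and sham hearts by -0.36 (log2, SE 0.09), with no overlap between 1.19 to 1.41 in TAC and 1.52 to 1.83 in sham hearts. Its exact permutation p was 0.0286, the smallest that 4 against 4 hearts can give, and the adjusted p over 32 tests was 0.0508. The Cox6a2 to Cox6a1 ratio had a log2 difference of -0.46 (SE 0.15) and that of Cox8b to Cox8a -0.33 (SE 0.11), each with an exact p of 0.0571 and an adjusted p of 0.0831. All 3 ratios were thus lower in TAC and none passed the threshold.

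Of the other respiratory genes, 5 of 12 tested complex IV assembly factors rose under TAC and 2 fell. Higd1a rose by 0.90 (SE 0.21, adjusted p = 0.00789), Cox11 by 0.76, Cox17 by 0.61 and Cox19 by 0.50, and Lrpprc, whose product stabilises mitochondrial mRNA, fell by 0.28 (SE 0.07, adjusted p = 0.00798). Of the 9 tested genes of complex V assembly and regulation, Atpaf1 rose by 0.78 and Immt and Chchd3 fell, with log2 differences of -0.46 and -0.21. Of the 8 tested genes of complex II and electron shuttles, 3 fell: Sdhc (-0.46), Etfdh (-0.38) and Etfa (-0.31). Both tested mitochondrially encoded subunits fell, mt-Co1 with a log2 difference of -1.35 (SE 0.35, adjusted p = 0.0247) and mt-Cytb with -1.78 (SE 0.53, adjusted p = 0.04), where the summed level of the list varied from 7588 to 26219 CPM between sham hearts. Among 17 regulators, 3 rose (Tfam by 0.40, Yy1 by 0.31, Polrmt by 0.27) and 4 fell (Ppara and Nfe2l2 at -0.37 each, Gabpa and Nrip1 at -0.36 each).

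Marker genes of cell types moved in the same contrast. Of 10 fibroblast markers 7 rose and 0 fell, and their sum was 1267 to 1408 CPM in sham and 2623 to 5158 in TAC hearts. Of 9 tested macrophage markers 5 rose and 0 fell, with sums of 536 to 580 and 746 to 1044 CPM. Of 5 tested skeletal muscle markers 2 rose and 0 fell, and the sums did not overlap, at 2711 to 3389 CPM in sham and 8228 to 17095 in TAC hearts. Acta1, skeletal actin, made up most of that difference, with a mean of 380 CPM in sham and 9227 in TAC hearts. Tnnt3 rose from 0.796 to 2.60 CPM, and at so low a sham level it may have passed the filter only through the TAC hearts. Which cells held these transcripts was not tested, so they do not show a change in skeletal muscle cells. Of 12 cardiomyocyte markers 5 rose and 4 fell, and their sums overlapped at 157693 to 186278 CPM in sham and 141860 to 167221 in TAC hearts. The part of these changes in the members' values was not tested.

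Sham and unoperated hearts, both adult and not under overload, are set side by side as a description, since age, operation, encoding and depth cannot be told apart between them. Cox7c stood at 88.8 CPM (mean) in sham and 35.4 in unoperated hearts, Atp5j2 at 780 and 507, and Uqcrh at 447 and 317, while Cox6b1 stood at 28.9 and 72.4 and Cox7a2l at 62.8 and 104. For Cox7a2l the sham level was thus the lowest of the adult groups, and the TAC hearts, at 102.3 CPM, lay at the level of unoperated adults. Cox6a2, Cox7a1 and Cox8b differed by no more than 0.11 (log2) between sham and unoperated hearts.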

How the data were processed

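The deposited files hold read counts per gene for 27 non-strand-specific, single-end libraries of polyadenylated RNA. The submitters' processing notes name TopHat 1.3.0, Bowtie, HTSeq, DESeq, edgeR and mm9; the counting mode is not given in the sources used here. Counts were used as deposited. edgeR 4.0.16 kept features by filterByExpr (at least 10 counts per library in enough libraries, 15 over all), with TMM scaling, and its robust quasi-likelihood test was run with Benjamini-Hochberg adjustment in each of 4 comparisons, using only the groups compared; the script was tested on simulated data. Standard errors are the log2 difference over the root of the F statistic. DESeq2 1.42.0 and limma-voom 3.58.1 were alternatives. Isoform ratios had 0.5 counts added per gene and were tested by exact permutation. Pseudogene copies were found with BLAST+ 2.17.0. Genes given with full values were the isoform pairs, the 4 called members with the largest change per direction and comparison, and members resting on 1 library or with few own bases. The members and lists were chosen with earlier results of these data known. No 2 replicates agreed within sampling noise. Replicate numbers were not treated as pairs in the main fits, since correlations of same-numbered deviations were not above 0.1 throughout in any comparison. Between 16 and 6 weeks the same-numbered library was the best match for replicates 1, 5 and 6 (correlations 0.08, 0.10 and 0.15). The check cannot decide whether numbers pair samples there, and a replicate block was an alternative.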

Additional observations from a re-analysis of the deposited data

Results flagged for a closer look

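Each value here lay apart from the rest of its group by Dixon's gap criterion, which was applied to 105 groups and by chance marks about 1 in 20. TAC replicate 2 held 574 CPM of Cox7a2 (next 354), 1278 of Cox8b (next 813), 474 of Atp5j (next 331) and 4.80 of Atp5g2 (next 2.20). Sham replicate 2 held 164 CPM of Cox5b (next 204) and 129 of Cox8a (next 174), and sham replicate 1 held 196 of Cox5a (next 157). Cox5a was 115 CPM in 6-week replicate 5 (next 144), and Uqcrb was 11.5 CPM in 16-week replicate 5 (next 3.86). At E13.5, Cox6b1 was 3.99 CPM in replicate 2 (next 11.5), Cox6b2 16.9 in replicate 4 (next 10.8) and Atp5g2 2.08 in replicate 7 (next 1.26).

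The pseudogene Atp5l-ps1, left out by the rule, had a median of 4.98 CPM in unoperated adults (7 to 17 counts) and 0 in the other libraries (0 to 2 counts). Base quality encoding and depth go with the same groups, and their part was not tested.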

How the results depend on the processing

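Over all alternatives, 3403 of 3496 single-member results kept their side of the threshold, 68 lost their call and 25 gained one. In 0 cases did the direction change where either fit was called. A change of direction where neither fit was called counts as kept. Uqcrb at E13.5 against unoperated adults is such a case, at -0.14 and at -0.26 to 0.38 when 1 replicate was left out. Between 16 and 6 weeks, 1 member in place of 0 was called higher under DESeq2, under limma-voom, with no filter, without mitochondrially encoded features and globins and with the replicate block, and 0 to 1 when 1 replicate was left out. The 5 called lower became 3 with all 27 libraries in 1 fit, 2 without libraries against their sex label, and 3 to 5 when 1 replicate was left out. Under TAC, the replicate block gave 4 higher and 5 lower, and the fit of all 27 libraries gave 5 lower. Leaving out 1 replicate gave 5 to 8 higher and 6 to 12 lower. The cause of these shifts was not tested. The Cox7a1 to Cox7a2 ratio at 16 against 6 weeks was 0.2513 with the replicate block (exact sign-flip p = 0.0625) and 0.2195 to 0.3165 when 1 replicate was left out. With the block, that of Cox7a1 to Cox7a2l was 0.1655 (exact sign-flip p = 0.0312), and it was 0.1422 to 0.2019 when 1 replicate was left out, passing the threshold without 6-week replicate 6 or 16-week replicate 1. Both block p-values are unadjusted. The Cox8b to Cox8a difference ran from -0.2508 to -0.1293 when 1 replicate was left out and was -0.244 without 16-week replicate 2, where it passed the threshold. With 5 counts added, the Atp5g2 to Atp5g3 difference at E13.5 was 0.4096 (exact permutation, adjusted p = 0.062). Uqcr10, Atp5f1, Cox7b2, Cox4nb and Atp5l2 had few counts and were tested in no comparison, except Uqcr10 in those with sham hearts, and the reason was not tested.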
